A study of Drosophila melanogaster with 3 samples.

Results

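The genes described here encode the subunits of the proteasome in Drosophila melanogaster. They were the protein-coding genes of the main chromosome arms whose symbol begins with Prosalpha, Prosbeta, Rpn or Rpt followed by a digit. This gave 48 of the 13945 protein-coding genes in the annotation. By symbol, 32 were canonical subunits and 16 were paralogs that carry T or R after the subunit number. The canonical genes comprised 7 Prosalpha, 7 Prosbeta, 6 Rpt and 12 Rpn genes. The paralogs comprised 5 Prosalpha, 6 Prosbeta, 3 Rpt and 2 Rpn genes. Binding of Mirror, which belongs to the Iroquois family of homeodomain factors, was mapped by chromatin immunoprecipitation followed by sequencing (ChIP-seq). Per the labels, all 3 samples came from whole embryos of mixed sex aged 4 to 20 h, of a transgenic line with GFP fused to the C-terminal end of mirr, and their chromatin was broken by sonication into pieces of 200 to 800 bp. They were biological replicates of 1 group. No embryos without the fusion formed a group for comparison, and a site bound in a few cells of the embryo cannot be told from a weak site bound in many.

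The proteasome degrades proteins that carry ubiquitin chains. Its core particle is a barrel of alpha rings (Prosalpha genes), which gate the entry, and beta rings (Prosbeta genes), which hold the proteolytic sites. Its regulatory particle contains the Rpt ATPases, which unfold the substrate, and the Rpn subunits, which form the scaffold, bind ubiquitin and remove it. The canonical genes are expressed in most cells, and several paralogs, such as the Prosalpha genes ending in T, are known for expression in the testis.

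Stretches upstream of 7 of these genes are shown because the results compare what lies there. The sequences come from the Release 6 (dm6) reference genome, end at the base before the gene start, and read 5' to 3' on the strand of the gene. Capitals mark TATCGATA, the DNA replication-related element (DRE), a promoter element of many housekeeping genes in flies. The first 5 genes had a Mirror peak: Prosalpha6 (chr2L:10221231-10221350, plus strand), Rpn11 (chr2L:5059791-5059910, minus strand), Rpn2 (chr3R:29153404-29153523, plus strand), Rpn5 (chr3R:5789373-5789492, plus strand) and Rpt5 (chr3R:23752815-23752875, plus strand). The other 2 are Prosbeta2 (chr3L:14999831-14999950, plus strand) and its paralog Prosbeta2R1 (chrX:5808834-5808953, plus strand). Prosbeta2 is a canonical gene with a DRE and with no region in any replicate. Of the first 5, the printed stretches of Rpn11, Rpn2 and Rpt5 lie inside the peak. Those of Prosalpha6 and Rpn5 lie outside it, between the peak and the gene start.
Prosalpha6: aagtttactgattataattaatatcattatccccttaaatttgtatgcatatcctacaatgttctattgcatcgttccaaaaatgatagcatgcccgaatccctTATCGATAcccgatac
Rpn11: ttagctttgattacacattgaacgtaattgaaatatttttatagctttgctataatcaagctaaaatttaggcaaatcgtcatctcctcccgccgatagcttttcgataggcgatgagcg
Rpn2: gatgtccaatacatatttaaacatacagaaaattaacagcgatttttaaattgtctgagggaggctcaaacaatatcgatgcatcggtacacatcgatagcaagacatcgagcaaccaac
Rpn5: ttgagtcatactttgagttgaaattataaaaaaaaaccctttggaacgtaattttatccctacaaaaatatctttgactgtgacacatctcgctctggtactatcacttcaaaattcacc
Rpt5: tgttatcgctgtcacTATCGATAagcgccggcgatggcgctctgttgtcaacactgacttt
Prosbeta2: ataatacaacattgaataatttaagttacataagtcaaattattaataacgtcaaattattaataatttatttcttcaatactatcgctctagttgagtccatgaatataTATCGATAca
Prosbeta2R1: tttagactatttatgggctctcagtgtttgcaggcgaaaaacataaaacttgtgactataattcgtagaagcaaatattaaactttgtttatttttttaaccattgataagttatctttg

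Mirror peaks lay at a minority of the canonical proteasome genes and at none of the paralogs. The peaks used were those the authors kept by the irreproducible discovery rate (IDR), a measure of how well the ranking of peaks is repeated across replicates. A gene was counted as bound when the summit of such a peak lay within 1000 bp of one of its transcription start sites (TSSs). By this measure 9 of the 32 canonical genes (28.1%) and 0 of the 16 paralogs were bound, so 9 of all 48 (18.8%). Of all 13945 genes, 3494 (25.1%) were bound. The share of the canonical genes was thus close to that of all genes, and the whole set lay below it only through the paralogs.

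The bound genes were spread over both particles. The regulatory Rpn genes had the largest share, with 5 of 12 (41.7%): Rpn2, a scaffold of the base, Rpn5, a structural subunit of the lid, Rpn8 and Rpn11, which form the pair whose Rpn11 member removes ubiquitin, and Rpn13, a ubiquitin receptor. Among the Prosalpha genes, 2 of 7 (28.6%) were bound, Prosalpha3 and Prosalpha6. The Rpt ATPases had 1 of 6 (16.7%), Rpt5. The smallest share was that of the Prosbeta genes, with 1 of 7 (14.3%), Prosbeta1, which carries the caspase-like proteolytic site. The families hold 6 to 12 genes each, and differences between them were not tested.

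Rpn8 had the strongest peak of the set. Its summit ranked 821 in the IDR list with a signal of 559.7, at chr2R:24399419-24399792 and 439 bp upstream of the TSS. A weaker summit at rank 5655, with a signal of 203.5, lay 240 bp upstream. Both were in an intron of Slik, a kinase gene, but Rpn8 was the only protein-coding gene with a TSS within 1000 bp. The nearest TSS of Slik was 2795 bp from the stronger summit. The region over this peak ranked 1240 (signal 184) in replicate 1, 467 (signal 188) in replicate 2 and 1010 (signal 201) in replicate 3. It thus stood high in every replicate. The signal is the authors' own value per peak without a stated scale, so it orders peaks within a list and is not compared between lists.

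The other 8 bound genes had weaker peaks. Prosbeta1 ranked 3108 (signal 294.2) and Rpt5 ranked 3513 (signal 274.6). Rpn2 ranked 4411 (signal 238.2), Prosalpha6 4621 (signal 231.7), Rpn5 4793 (signal 226.0) and Rpn13 4937 (signal 222.1). Prosalpha3 and Rpn11 were near the end of the list, at ranks 5706 and 5709 with a signal of 202.2 each, where the lowest signal of any IDR peak was 190.7 and the highest 4323. The strongest summit of each bound proteasome gene had a median rank of 4621, against 2700 over all bound genes. Of the 9, 8 ranked weaker than 3100, against 1513 of the 3494 bound genes (43.3%). Apart from Rpn8, the proteasome genes were therefore found in the weaker portion of the list.

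All 9 strongest summits were upstream of the proteasome TSS, against 2540 of 3494 (72.7%) for all bound genes. Their distances were 26 bp at Prosalpha3, 30 bp at Rpt5, 70 bp at Rpn11, 94 bp at Prosbeta1, 125 bp at Rpn2, 346 bp at Rpn13, 372 bp at Rpn5, 439 bp at Rpn8 and 570 bp at Prosalpha6. The median of 125.0 bp was close to the 154.0 bp of all bound genes. Prosalpha6 was the farthest gene inside the limit, and the next canonical gene outside it was Prosbeta6, with a summit 1137 bp away.

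Most of these summits stood between a proteasome gene and another gene. The TSS of a second gene lay within 1000 bp of the summit in 8 of the 9, and in 5 of them it was nearer than that of the proteasome gene. These counts were not made over all bound genes, so how usual they are is not known here. The peak at chr2L:10220583-10220978 near Prosalpha6 was in the 5' UTR of Npc1a, a gene of sterol transport, whose TSS was 171 bp away. The peak at chr2R:13960552-13960947 near Rpn13 was in the 5' UTR of CtsL1, which encodes a lysosomal cathepsin, 75 bp from its TSS. The peak at chr3R:5788923-5789318 near Rpn5 was in an intron of Hat1, a histone acetyltransferase gene, 47 bp from its TSS. In these 3 cases the summit was inside the neighbour.

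The strongest summits at the other 5 genes with a close neighbour were between genes. The Prosbeta1 summit (peak chr2R:16014683-16015078) was 27 bp from the TSS of Rrp42, a gene of the RNA exosome, and the Rpt5 summit (peak chr3R:23752648-23753043) was 12 bp from that of RanBP3. The proteasome TSS was nearest at Prosalpha3 (peak chr2R:20994676-20995071), with dgt3, an augmin gene, at 493 bp. It was also nearest at Rpn11 (peak chr2L:5059662-5060057), with qtc at 955 bp, and at Rpn2 (peak chr3R:29153201-29153596), with Slbp, the histone mRNA stem-loop binding protein gene, at 133 bp. Which gene of such a pair a peak serves cannot be read from its position. When each summit was given to the gene of the nearest TSS only, 4 of the 48 proteasome genes (8.33%) kept one. The 4 were Prosalpha3, Rpn11, Rpn2 and Rpn8. Of all 13945 genes, 2709 (19.4%) had one by this rule. Before this step, 9 proteasome genes and 3494 of all genes were bound.

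**Figure D1:**
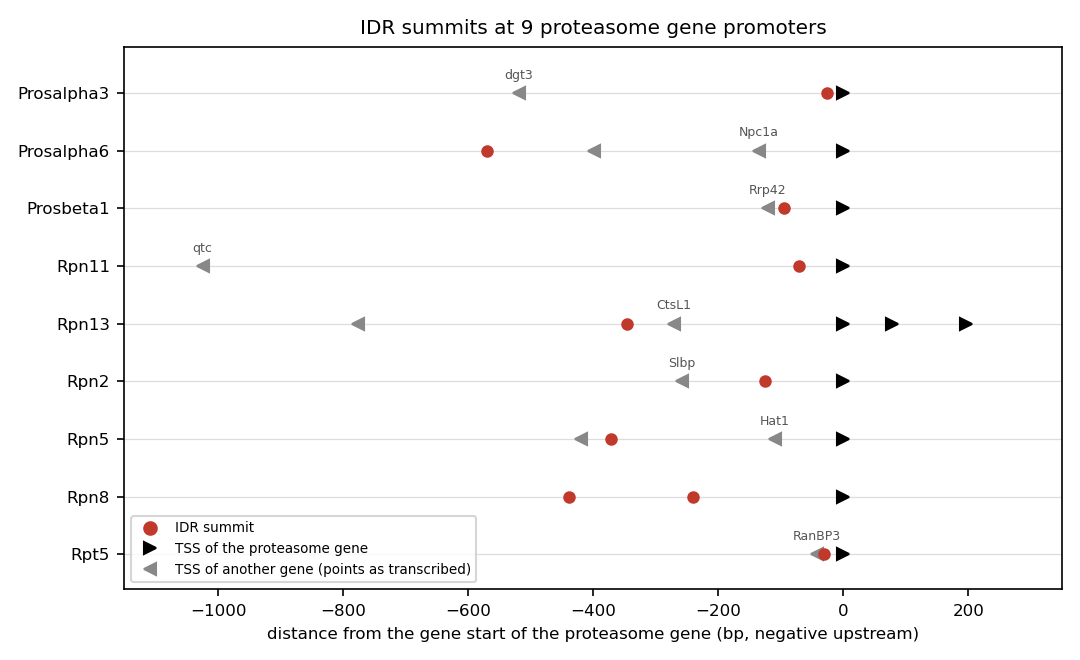
Position of each IDR summit (points) relative to the TSS of the 9 bound proteasome genes, in bp with the direction of transcription to the right, and of the TSSs of other genes (grey arrows). All strongest summits lie left of the proteasome TSS, from 26 bp at Prosalpha3 to 570 bp at Prosalpha6, and other genes start close to 8 of them.

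The replicates differed in which proteasome genes they ranked high. To give lists as long as the IDR list, the same number of regions was taken from each replicate, strongest first, and called its top list. Summits of the top lists lay within 1000 bp of 10 of the 48 genes in replicate 1, 7 in replicate 2 and 5 in replicate 3, a mean of 7.33 ± 2.52 genes (SD, n = 3) or 15.3% ± 5.24. Over all genes the shares were 28.1%, 22.4% and 22.6% in replicates 1, 2 and 3, a mean of 24.4% ± 3.24 (SD, n = 3). All of these proteasome genes were canonical. Their share of the canonical genes was 31.2%, 21.9% and 15.6%, a mean of 22.9% ± 7.86 (SD, n = 3), which differed from that of all genes by less than the spread between replicates.

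Rpn8 and Rpt5 were the only proteasome genes with a summit in the top lists of all 3 replicates, so 2 of 48 (4.17%), or 6.25% of the canonical genes, against 2062 of all genes (14.8%). At Rpt5, an ATPase of the ring that feeds substrates into the core, the region over the peak ranked 3396 (signal 112), 5508 (signal 58.2) and 4124 (signal 95.4) in replicates 1, 2 and 3. Of the other bound genes, 4 had their region in the top lists of 2 replicates and 3 in that of 1 replicate. Rpn5 varied most, with rank 2437 in replicate 1, 21507 in replicate 2 and 4100 in replicate 3. At Prosalpha6 the region ranked 6893 in replicate 1 and 3479 in replicate 2, and replicate 3 had none there. Inclusion in the IDR list therefore did not mean a high rank in every replicate.

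For the remaining bound genes the ranks are given for replicates 1, 2 and 3 in turn. Prosbeta1 had 3321, 2901 and 9275, and Rpn13 had 4887, 2920 and 10490, both highest in number, and so weakest, in replicate 3. Rpn2 had 2399, 8846 and 6028, Rpn11 had 5603, 12433 and 7398, and Prosalpha3 had 6593, 9774 and 5445, all weakest in replicate 2. No replicate was thus the weakest at every bound gene.

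**Figure D2:**
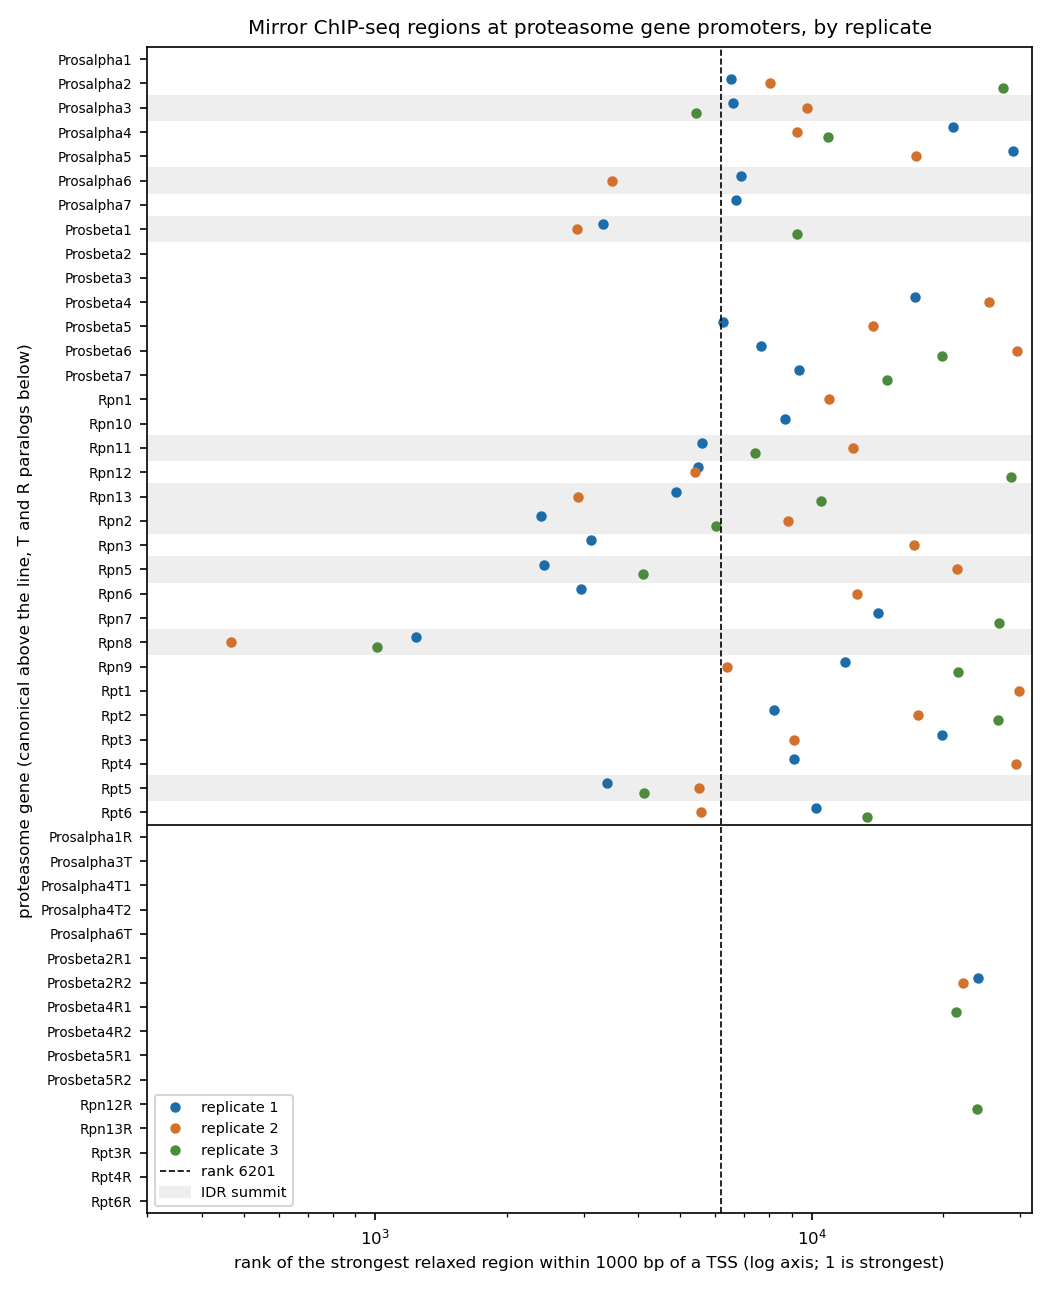
Rank of the strongest region within 1000 bp of a TSS in the relaxed list of each replicate (points, rank 1 is strongest) for the canonical proteasome genes and the paralogs. Rpn8 lies between 467 and 1240 in all 3 replicates, and most other genes are spread over a wide range of ranks or lack a region in some replicate.

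Weak regions were common at the canonical genes and rare at the paralogs. The relaxed lists, called with no IDR threshold, hold 30000 regions in each replicate by construction. Summits of these regions lay within 1000 bp of 27, 25 and 17 of the 32 canonical genes in replicates 1, 2 and 3, a mean of 71.9% ± 16.5 (SD, n = 3). They lay near 1, 1 and 2 of the 16 paralogs, a mean of 8.33% ± 3.61 (SD, n = 3). For all 48 genes the mean was 50.7% ± 9.85 (SD, n = 3). For all genes of the annotation the shares were 58.9%, 52.8% and 52.4%, a mean of 54.7% ± 3.63 (SD, n = 3).

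The paralogs lay below all genes in each replicate, by more than the spread between replicates. The canonical genes lay above all genes in replicates 1 and 2 (84.4% and 78.1%) and near them in replicate 3 (53.1%). Replicate 3 thus had fewer canonical genes than the other two, although its share of all genes was almost that of replicate 2. In the regions that these genes had, the median rank at canonical genes was 6699, 9774 and 10907 in replicates 1, 2 and 3, against 6592, 7634 and 7725 at all genes.

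A relaxed summit was present in all 3 replicates at 15 of the 32 canonical genes (46.9%), at 0 of the 16 paralogs and at 5485 of all genes (39.3%). None was present in any replicate at 3 canonical genes (9.38%), at 13 paralogs (81.2%) and at 4289 of all genes (30.8%). The 3 canonical genes were Prosalpha1, an alpha-ring gene, Prosbeta2, which carries the trypsin-like site, and Prosbeta3, a structural beta gene. The paralogs with any region were Prosbeta2R2, at ranks 24123 in replicate 1 and 22225 in replicate 2, Prosbeta4R1, at rank 21424 in replicate 3, and Rpn12R, at rank 23948 in replicate 3. These all stood in the weaker portion of the lists.

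**Figure D3:**
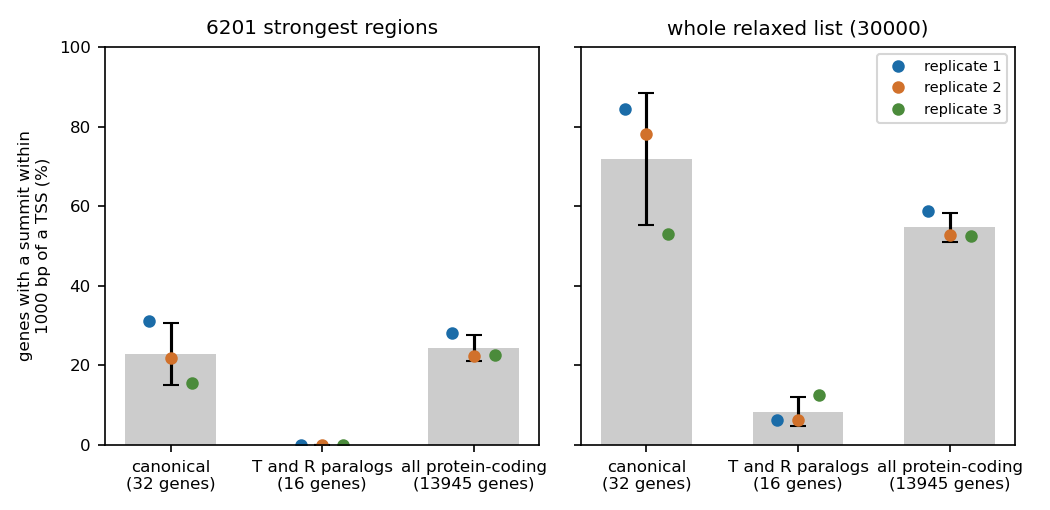
Percent of canonical proteasome genes, of T and R paralogs and of all genes with a summit within 1000 bp of a TSS, per replicate (points) and as mean with SD (n = 3), in the top lists, which are as long as the IDR list, and in the relaxed lists. In the relaxed lists the paralogs stay at 12.5% or less, and the canonical genes run between 53.1% and 84.4%.

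Bound or not, 46.9% of canonical genes and 39.3% of all genes had a relaxed summit in all 3 replicates. In no replicate was one present at 9.38% and 30.8%, respectively. These shares were not counted over only the genes of the annotation with no IDR summit. Of the 23 canonical genes with no IDR summit, 20 had a relaxed summit in some replicate and 7 in all 3. Of these 7, Rpt6, an ATPase, had the best mean rank, with 10246, 5581 and 13429 in replicates 1, 2 and 3 and summits within 36 bp of its TSS in each. Rpn12, a lid subunit, ranked 5476, 5411 and 28676. Rpn9, also of the lid, ranked 11951, 6414 and 21641. Prosalpha4, of the alpha ring, ranked 21136, 9275 and 10907. Prosalpha2, also of the alpha ring, ranked 6538, 8012 and 27510. Rpt2, whose tail opens the gate in yeast, ranked 8203, 17520 and 26683. Prosbeta6 was the seventh. The positions of the Rpt6 summits thus lay close together while the ranks did not.

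Some unbound genes ranked high in single replicates. Of the 23, 4 were in the top list of at least 1 replicate. They were Rpn12, Rpt6, Rpn3 at rank 3127 in replicate 1 and Rpn6 at rank 2962 in replicate 1. Bound or not, 59.4% of canonical genes and 65.8% of all genes were in no top list. Rpn3 and Rpn6 are lid subunits, and neither had a region in replicate 3. In the relaxed list called on all replicates together, Rpn3 ranked 7032 (signal 173.4), Rpn12 7107 (signal 172.4) and Rpt6 7457 (signal 166.8). These signals were below the lowest of the IDR list, 190.7, whereas Rpn11 was in that list at rank 5709 (signal 202.2). Rpn6 had no summit of the joint list within 1000 bp, and the nearest was 12266 bp away. In that joint list 23 canonical genes (71.9%) and 1 paralog (6.25%) had a summit, against 54.5% of all genes. The canonical genes not yet named had a region in 1 or 2 replicates. They were Prosalpha5, Prosalpha7, Prosbeta4, Prosbeta5 with the chymotrypsin-like site, Prosbeta7, Rpn1, Rpn7, the ubiquitin receptor Rpn10, Rpt1, Rpt3 and Rpt4.

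The paralogs were also farther from any Mirror peak. The nearest IDR summit lay at a median of 4827 bp from a TSS of the canonical genes (range 26 to 29595), 27280 bp for the paralogs (range 3722 to 124092) and 5876 bp for all genes. Within 4000 bp a summit was found for 15 canonical genes (46.9%), 1 paralog (6.25%) and 41.4% of all genes. Within 32000 bp the shares were 100%, 56.2% and 85.6%. The gap between the paralogs and the other genes thus ran well beyond the promoter. These distances use 1 list and hold no replicate spread.

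**Figure D4:**
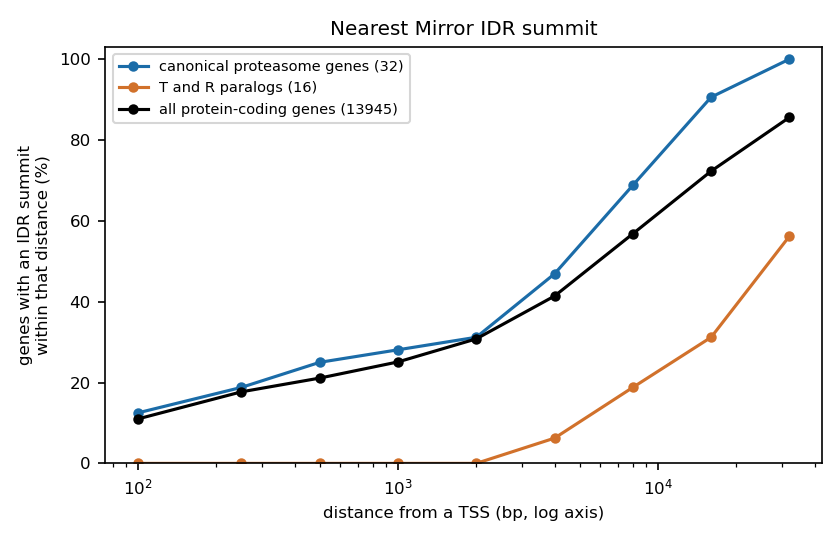
Percent of genes with an IDR summit within a given distance of a TSS (log scale, bp) for canonical proteasome genes, T and R paralogs and all genes. The line of the canonical genes follows that of all genes up to 4000 bp (46.9% and 41.4%), and that of the paralogs stays below both.

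Canonical and paralog genes differ in what surrounds them. A TSS on the opposite strand within 1000 bp upstream, here called a divergent neighbour, was found for 19 of 32 canonical genes (59.4%), 3 of 16 paralogs (18.8%) and 4914 of all genes (35.2%). Of the 19 canonical genes with such a neighbour, 7 (36.8%) were bound, against 36.4% of all genes with one. Of the 13 without, 2 (15.4%) were bound, against 18.9% of all genes without one. Of the paralogs, 0 of 3 with such a neighbour and 0 of 13 without were bound. Split by the number of annotated TSSs, the canonical genes departed from all genes in both directions: with 1 TSS, 7 of 22 (31.8%) were bound, against 18.3% of all genes, and with more TSSs, 2 of 10 (20.0%), against 43.9%. These differences were not tested. Genes with a single exon made up 12.5% of the canonical genes, 37.5% of the paralogs and 15.2% of all genes.

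The promoters of the canonical genes held the DRE more often than those of other genes. In the 300 bp from 250 bp before to 50 bp after the gene start, searched on both strands, TATCGATA was found at 12 of 32 canonical genes (37.5%), 0 of 16 paralogs and 1305 of all genes (9.36%). They were Prosalpha3, Prosalpha5, Prosalpha6, Prosbeta1, Prosbeta2, Prosbeta6, Rpn3, Rpn7, Rpn9, Rpn12, Rpn13 and Rpt5. The printed stretches reach at most 120 bp upstream, so a DRE in them could only lie close to the gene start. Counted from the gene start, its first base was at -16 in Prosalpha6, -46 in Rpt5 and -10 in Prosbeta2. Over the 12 genes the first base ran from -217 at Rpn13 to 26 at Rpn9. With the promoter begun at 100 bp before the start the shares were 25.0%, 0 and 7.63%, and with 500 bp they were 43.8%, 0 and 11.4%.

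Other sequences were nearer to their shares in all promoters. Motif 1 (GGTCACACT), a core promoter element, was found at 5 canonical genes (15.6%), 0 paralogs and 6.05% of all genes. The antioxidant response element (TGACNNNGC), which Cnc binds with its partner Maf-S, was found at 5 canonical genes (15.6%), 1 paralog (6.25%) and 8.63% of all genes. The Iroquois sequence (ACANNTGT), a palindrome bound by proteins of the family of Mirror, was found at 5 canonical genes (15.6%), 2 paralogs (12.5%) and 13.4% of all genes. GAGAG was found at 3 canonical genes (9.38%), 6 paralogs (37.5%) and 29.7% of all genes, so it was the one that the canonical genes held least often relative to all genes. A GATA sequence (AGATAAG or TGATAAG) was found at 18.8% of each kind and 10.8% of all genes, and TATAAA at 40.6%, 31.2% and 45.8%. A match is only a match of letters and was not tested as a site.

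Of the 9 bound proteasome genes, 5 (55.6%) had a DRE in the promoter, namely Prosalpha3, Prosalpha6, Prosbeta1, Rpn13 and Rpt5. Read the other way, 5 of the 12 canonical genes with a DRE (41.7%) and 4 of the 20 without (20.0%) were bound. Over all genes the shares were 34.3% with a DRE (447 of 1305) and 24.1% without. Around the 10 IDR summits at proteasome genes, within 100 bp on each side, the DRE was found at 3 (30.0%), those of Prosbeta1, Rpt5 and Prosalpha3, against 2.52% of all IDR summits. The Iroquois sequence was found at 0 of the 10, against 13.4% of all summits, and GAGAG at 0, against 30.6%. With 10 summits, each of them is 10 percentage points. These 10 lie within 1000 bp of a TSS by choice, whereas all IDR summits include those far from promoters. The shares at summits therefore differ by location as well as by gene set.

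**Figure D5:**
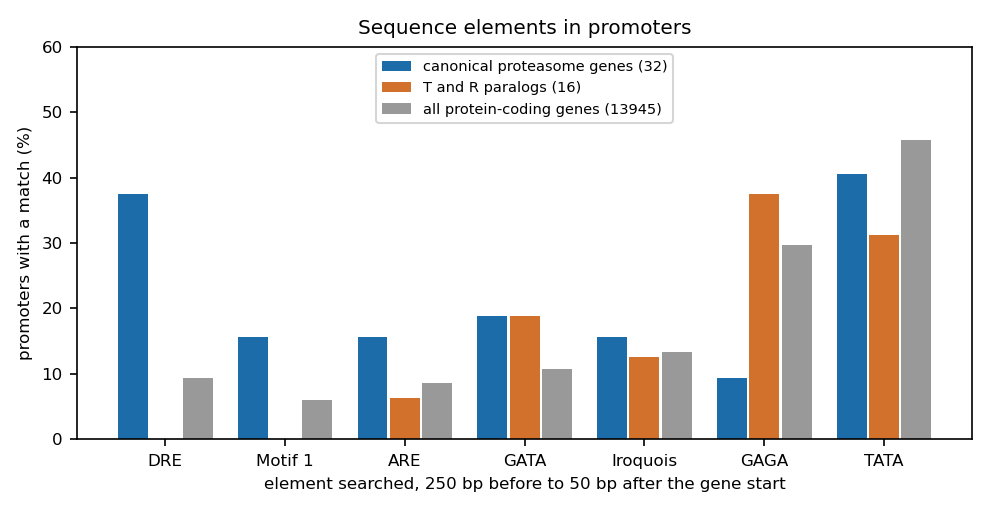
Percent of promoters (250 bp before to 50 bp after the gene start) that hold each searched sequence, for canonical proteasome genes, T and R paralogs and all genes. The DRE stands out, at 37.5%, 0% and 9.36%, whereas the Iroquois sequence is at 15.6%, 12.5% and 13.4%.

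Genes that assemble, regulate or supply the proteasome were looked up in the same way, together with Sem1, a subunit of the lid whose symbol does not match the rule for the 48 genes. Of these 16 genes, 5 (31.2%) had an IDR summit, near the 25.1% of all genes. Pomp, the assembly factor of the core, ranked 4671 (signal 230.0) with a summit 205 bp from its TSS. Uch-L5, a deubiquitinase that docks at Rpn13, ranked 2431 (signal 338.0) at 20 bp, with Jarid2 at 53 bp. Ubqn, a shuttle that carries ubiquitinated proteins, ranked 5949 (signal 196.4) at 330 bp, inside the 5' UTR of dome. Pomp and Ubqn stood in the weaker portion of the list, as most bound subunit genes did. Uch-L5 ranked stronger than every bound subunit gene except Rpn8.

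The other two were stronger or had several peaks. Ubi-p63E, a polyubiquitin gene, had 2 summits, the stronger at rank 3468 (signal 276.9). cnc, the fly gene of the Nrf factors that raise proteasome transcription in mammals, had 7 summits and has 10 annotated TSSs. Its strongest summit was at rank 979 (signal 518.4), and the regions over that peak ranked 589, 917 and 2062 in replicates 1, 2 and 3. It and Rpn8 were the only genes of both lists with a summit stronger than rank 1000. No IDR summit was found at 11 genes: maf-S, the partner of cnc, PI31, REG, Usp14, TER94, Rad23, rngo, Pngl, Uba1, Ubi-p5E and Sem1. Sem1 had no region in any replicate, and 8 of the 16 genes had one in all 3, against 39.3% of all genes.

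The canonical proteasome genes were set beside 2 other housekeeping complexes. IDR summits were found at 9 of 32 canonical proteasome genes (28.1%), against 72 of 92 ribosomal protein genes (78.3%) and 13 of 33 vacuolar ATPase genes (39.4%). In the relaxed lists the means were 71.9% ± 16.5 of the canonical proteasome genes and 65.7% ± 9.26 of the vacuolar ATPase genes (SD, n = 3 each). This difference in the relaxed lists was smaller than the spread between replicates. In the top lists the means were 22.9% ± 7.86 and 37.4% ± 4.63, respectively (SD, n = 3 each). There the vacuolar ATPase share was the higher in replicates 1, 2 and 3, at 42.4%, 36.4% and 33.3% against 31.2%, 21.9% and 15.6%. The ribosomal protein genes had 78.6% ± 5.36 in the top lists and 88.8% ± 5.47 in the relaxed lists (SD, n = 3 each). The other 2 sets were taken by symbol with no paralogs removed. With its paralogs included, the proteasome lay below the vacuolar ATPase in each kind of list. It had 18.8% in the IDR list, 15.3% ± 5.24 in the top lists and 50.7% ± 9.85 in the relaxed lists (SD, n = 3 each). None of these differences between the complexes was tested. With the distance limit narrowed or widened, the canonical share stayed near that of all genes, with 18.8% against 17.7% within 250 bp, 25.0% against 21.1% within 500 bp and 31.2% against 30.8% within 2000 bp. It was lower than that of all genes with the 3100 strongest IDR peaks, at 3.12% against 14.2%. Prosbeta1, at rank 3108, lay just outside that limit. The canonical share was also lower with each summit given to its nearest gene, at 12.5% against 19.4%. Sequencing depth is not given in the sources used here, so a gene without a peak is one where none was called, and the part of depth in the differences between replicates was not tested.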

How the data were processed

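The deposited peak lists were used as given. Per the file headers and labels, the authors mapped ChIP-seq reads to dm6, called regions in each of the 3 replicates and on all of them together against the same control, and kept 6201 peaks by IDR. The aligner, caller, IDR threshold and depth are not given in the sources used here. Each relaxed list holds 30000 regions, of which the 6201 strongest per replicate formed its top list. The signal deposited by the authors has no stated scale and served only to rank regions within a list. The samples' free text speaks of an input control, but title, assay and antibody name a ChIP of a transcription factor, and the lists were read as such. TSSs (19607) came from the Ensembl release 115 annotation of BDGP 6.54, and a gene was bound if a summit lay within 1000 bp. Neighbouring genes, and whether a summit lay between genes, were looked up among protein-coding genes only. No p-value was computed: counts are set beside those of all genes, and replicates as mean and SD. Python 3.11.15, numpy 2.4.6 and matplotlib 3.10.9 were used, and the counting was tested on simulated data. Values are given for each gene with an IDR summit, the gene nearest to it, and the 6 unbound genes with regions in all replicates and the best mean rank. The members, the 16 pathway genes (16 of 16 symbols found) and the searched sequences were chosen with earlier results of these data known. Other promoter lengths were added after seeing the data.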

Additional observations from a re-analysis of the deposited data

How the results depend on the processing

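Of 44 alternative values (other distances, nearest gene only, the strongest peaks, whole relaxed lists and each replicate left out), 35 stayed within 1.5 times of the value reported or within its SD, and 9 did not. These values are not independent. The IDR counts for all members and for canonical genes are the same, because every bound gene was canonical. The paralog count of 0 could not rise under a stricter setting and was counted as unchanged. With the 3100 strongest IDR peaks, 1 of 48 proteasome genes, 1 of 32 canonical genes and 2 of 16 pathway genes were bound. Of all genes, 1981 (14.2%) were. Prosbeta1, at rank 3108, lay just outside that limit. With each summit given to its nearest gene, 4 proteasome genes, all 4 canonical, were bound. The mean number per replicate was 2.67 with the 3100 strongest regions of each and 24.3 with the whole relaxed lists, against 7.33 as reported. Within 250 bp, 9 genes had relaxed summits in every replicate, against 15 within 1000 bp. Leaving out 1 replicate gave 15 to 24 genes with relaxed summits in all that remained, the highest without replicate 3 (24) and the lowest without replicate 1 (15). No paired analysis was possible because all samples form 1 group. Depth and the scale of the signal are unknown, so weak sites at these genes could have been missed, and the 9 bound genes are too few to order the families.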
